A study of Mus musculus with 6 samples.

Results

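The genes described here are 9 core components of the transforming growth factor beta (TGF-beta) pathway, namely the 3 ligand genes Tgfb1, Tgfb2 and Tgfb3, the 2 receptor genes Tgfbr1 and Tgfbr2, and the 4 SMAD genes Smad2, Smad3, Smad4 and Smad7. They were chosen by gene symbol, and all 9 were found among the 22913 genes with counts and among the 22833 genes with FPKM. All 9 also had enough reads to be tested, as did 12827 genes in all. The cells were HL-1, an immortalised mouse line derived from atrial heart muscle tumour tissue. The control group (Ctrl, 3 libraries) carried a control plasmid, and the other group (HSPA1A, 3 libraries) carried a plasmid that overexpresses HSPA1A, a stress-inducible chaperone of the HSP70 family, which the labels call human. Both plasmids were introduced by transient lipid transfection, and the labels give 48 h from transfection to harvest. No other treatment is named, and all 6 libraries come from 1 cell line.

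TGF-beta ligands are secreted as latent dimers bound to their own propeptide and to latent TGF-beta binding proteins, and they signal only once released. A released ligand binds the type II receptor, encoded by Tgfbr2, which phosphorylates the type I receptor, encoded by Tgfbr1. The type I receptor phosphorylates SMAD2 and SMAD3, which join SMAD4 and enter the nucleus to regulate transcription, while SMAD7 is induced by the pathway and blocks the receptor. In the heart the pathway is known above all for fibroblast activation, matrix deposition and hypertrophic remodelling.

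The genes lie at the following places in mouse build GRCm38 (GENCODE M21). Tgfb1 spans chr7:25687002-25705077 on the plus strand, Tgfb2 chr1:186622792-186705989 on the minus strand and Tgfb3 chr12:86056745-86079041 on the minus strand. Tgfbr1 spans chr4:47353222-47414931 on the plus strand and Tgfbr2 chr9:116084293-116175360 on the minus strand. Smad3 lies on the same chromosome as Tgfbr2, at chr9:63646767-63757994 on the minus strand, and Smad2, Smad4 and Smad7 lie together on chromosome 18, with Smad4 at chr18:73639009-73703780 on the minus strand and Smad7 and Smad2 at higher coordinates, chr18:75367529-75395935 and chr18:76241580-76310963 on the plus strand.

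Depth was similar between the groups, with 23849656 to 26897086 counts per library. HSPA1A replicate 2 stood apart from its group, at -15.1 on the first principal component of log2 values, against 15.9 and 18.3 for HSPA1A replicates 1 and 3 and -8.27 to -4.33 for the control libraries. Results that rest on this library are given with and without it. The library was singled out by these same data, so fits without it are description and not independent support. Mouse Hspa1a had 10 to 17 reads in the control libraries and 11 to 20 in the HSPA1A libraries, so the deposited counts did not separate the groups by the targeted gene. Transcripts of a human plasmid are counted only as far as their reads align to mouse genes. Of 20 cardiac muscle markers 16 had counts, and 8 of these averaged at least 1 CPM (reads scaled to the library total after TMM normalisation). The listed markers Nppa, Myl7, Myh6 and Hand2, of which Nppa and Myl7 are atrial, were not among the genes with counts. Des, Gja1, Tnnt2 and Gata4 were at 614, 128, 40.6 and 32.5 CPM, while Actc1, Tnni3 and Ryr2 had 3, 7 and 11 reads over all 6 libraries. Among markers of other cell types, Ddr2 and Col1a2, which are fibroblast markers, averaged 321 and 299 CPM. The 16 cardiac muscle markers summed to between 857 and 872 CPM in control and to between 764 and 821 CPM in the HSPA1A group, and the 8 fibroblast markers with counts summed to between 716 and 744 CPM in control versus between 682 and 715 CPM in HSPA1A libraries. Lum and Thy1, also fibroblast markers, had 1 read each. The 5 endothelial markers with counts summed to at most 0.702 CPM in every library. Whether differences in cell state contributed to the results below was not tested, and in bulk RNA fewer expressing cells and less RNA per cell cannot be told apart.

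Tgfb1 and Tgfb2 mark the high and the low end of ligand expression in these cells, and the 250 bases before their RefSeq transcription starts are shown for that reason (RefSeq, build GRCm38.p6). The Tgfb1 window is chr7:25686752-25687001 on the plus strand and the Tgfb2 window chr1:186705990-186706239 on the minus strand. Capitals mark matches, on either strand, to any of 5 motifs, which are the TATA box spelled TATAAA, the Sp1 GC box spelled GGGCGG, the AP-1 site spelled TGANTCA, the cyclic AMP response element spelled TGACGTCA and the SMAD-binding repeat spelled CAGACA.
Tgfb1: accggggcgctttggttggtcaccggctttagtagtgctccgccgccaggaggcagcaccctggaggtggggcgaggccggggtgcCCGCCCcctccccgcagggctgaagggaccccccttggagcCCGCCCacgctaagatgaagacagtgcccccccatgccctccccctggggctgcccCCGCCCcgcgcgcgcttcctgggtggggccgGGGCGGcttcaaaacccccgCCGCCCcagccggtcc
Tgfb2: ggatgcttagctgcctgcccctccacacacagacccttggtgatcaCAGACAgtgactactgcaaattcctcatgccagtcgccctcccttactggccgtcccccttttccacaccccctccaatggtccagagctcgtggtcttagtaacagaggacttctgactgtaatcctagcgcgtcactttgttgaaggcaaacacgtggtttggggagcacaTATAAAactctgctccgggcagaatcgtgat
The Tgfb1 window held 5 GC boxes and no match to the other motifs, and its GC content was 75.2% with 21 CpG dinucleotides. The Tgfb2 window held 1 TATA box and 1 SMAD-binding repeat and no GC box, with a GC content of 53.6% and 8 CpG dinucleotides. Of 32851 promoter windows of the same length, 32.7% held a GC box, 12.4% a TATA box, 17.1% a SMAD-binding repeat, 6.75% an AP-1 site and 1.55% a cyclic AMP response element. The median GC content over these windows was 52.4%. Windows were matched by symbol for 5 of the members, Tgfb1, Tgfb2, Tgfbr1 (2 starts), Tgfbr2 and Smad3, and those of Smad2, Smad4 and Smad7 were not used here. No window was available for Tgfb3, and motif matches in the Tgfbr1 windows are not given. The Smad3 window held 2 GC boxes and the Tgfbr2 window none of the motifs. These matches describe the letters only.

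On the length-corrected FPKM scale, the order of the members over all 6 libraries was Smad4, Tgfb1, Smad2, Tgfbr2, Smad3, Smad7, Tgfb3, Tgfbr1 and Tgfb2. Smad4, the shared partner of all receptor-regulated SMADs, averaged 15.9 ± 0.79 FPKM (SD, n = 6), and Tgfb1 averaged 14.6 ± 2.0 FPKM. The ranges of these 2 genes overlapped, since the lowest Smad4 value was 14.7 and the highest Tgfb1 value 16.5 FPKM, and Smad4 was the higher of the pair in 4 of 6 libraries. Smad2 followed at 7.97 ± 0.56 FPKM and did not overlap with either neighbour. Tgfbr2 and Smad3 could not be ordered, at 6.06 ± 0.42 and 5.96 ± 0.50 FPKM, with Tgfbr2 higher in 3 of 6 libraries. Below them Smad7 was at 4.75 ± 0.16, Tgfb3 at 2.56 ± 0.17, Tgfbr1 at 2.15 ± 0.13 and Tgfb2 at 0.763 ± 0.139 FPKM, with no overlap between neighbours. Among the tested genes, Smad4 and Tgfb1 lay at the 71.4th and 69.5th percentile of mean FPKM and Tgfb2 at the 15.6th. FPKM depends on the gene lengths that the authors used, and no source used here gives them.

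**Figure D1:**
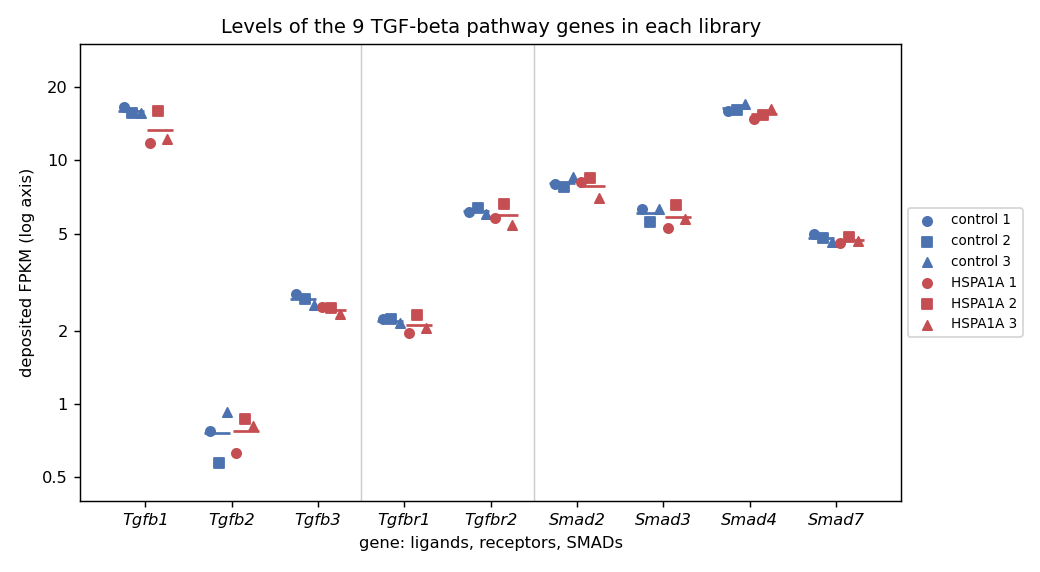
Deposited FPKM on a log axis for the 9 genes, with 1 point per library (blue control, red HSPA1A) and short lines at the group means. Smad4, at 14.7 FPKM or more, and Tgfb1, at 11.8 to 16.5 FPKM, share the top, and Tgfb2 is lowest at 0.57 to 0.93 FPKM.

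The ligand genes spanned a wide range of levels, and Tgfb1 was the only member with an unadjusted p under 0.05. Tgfb1 encodes the prevailing TGF-beta isoform in most tissues. It had 1020, 892 and 949 reads in control replicates 1 to 3 and 670, 997 and 723 reads in HSPA1A replicates 1 to 3. In CPM scaled by TMM normalisation these were 38.3, 35.8 and 35.9 against 28.6, 36.8 and 29.9. HSPA1A replicates 1 and 3 were therefore lower than all other libraries, whereas HSPA1A replicate 2 lay within the control range, so the groups overlapped. The group means were 36.7 ± 1.4 CPM in control versus 31.8 ± 4.4 CPM in the HSPA1A group (SD, n = 3 each). Tgfb1 had a log2 fold change of -0.20 ± 0.09 (SE; 95% interval -0.40 to -0.01). In the quasi-likelihood test of edgeR its p was 0.0446 unadjusted and 0.574 after Benjamini-Hochberg adjustment, so it was not called. An unadjusted p under 0.05 was thus found for 1 of the 9 members, on the lower side, against 8.59% of all tested genes in either direction and 4.26% on the lower side.

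Without HSPA1A replicate 2, Tgfb1 was called lower at a log2 fold change of -0.32 ± 0.06 (SE; adjusted p = 0.00411, edgeR's quasi-likelihood test). This fit called 1 of the 9 members, against 10.2% of all tested genes, or 4.94% lower and 5.27% higher. With all 6 libraries 0.179% of tested genes were called. The library left out was singled out by its values in these same data, so the adjusted p is not independent support. In 16.6% of tested genes HSPA1A replicates 1 and 3 lay below the other 4 libraries in CPM, the pattern seen on that scale for Tgfb1 and for no other member. On FPKM, Tgfbr1 and Tgfbr2 showed it as well. Leaving out any other library gave adjusted p-values up to 0.93 for Tgfb1. The noncoding transcript Yam1 took 2.70%, 1.58% and 2.53% of counts in HSPA1A replicates 1 to 3, against 1.86%, 1.18% and 1.23% in control replicates 1 to 3. With its log2 level as a covariate, the log2 fold change of Tgfb1 was -0.08 ± 0.11 (SE). Yam1 was chosen after the data were seen and was highest in HSPA1A replicates 1 and 3, where Tgfb1 was lowest. A covariate with that pattern takes up such a difference by construction, so the smaller fold change is no separate result. What part these library differences had in the Tgfb1 values was not tested.

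Tgfb2, an isoform with known roles in heart development, was measured at low depth. It had 114, 77 and 135 reads in control and 85, 131 and 114 reads in HSPA1A replicates 1 to 3. The groups overlapped widely, and control replicates 2 and 3 held the lowest and the highest value. Tgfb2 was at 4.16 ± 1.02 and 4.395 ± 0.67 CPM (SD, n = 3 each), with a log2 fold change of 0.08 and a 95% interval from -0.35 to 0.51. Its coefficient of variation among control libraries was 24.4%, against 2.47% to 7.83% for the other members. Tgfb3 was at 10.3, 9.58 and 9.08 CPM in control versus 9.44, 8.90 and 8.86 CPM in HSPA1A replicates 1 to 3. HSPA1A replicates 2 and 3 lay below all controls while replicate 1 lay between them. The log2 fold change of Tgfb3 was -0.09, with a 95% interval from -0.30 to 0.12. In the annotation Tgfb3 overlaps Ttll5, Tgfb2 the antisense transcript Gm29491 and Smad4 the pseudogene AC132418.2, each on the other strand, so reads could be shared if the counting did not use strand.

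Tgfb1 made up most of the ligand transcripts. Its share of the summed FPKM of the 3 ligand genes was 82.1%, 82.8% and 81.9% in control and 79.0%, 82.6% and 79.6% in HSPA1A replicates 1 to 3. Tgfb3 contributed 12.9% to 16.8% and Tgfb2 3.01% to 5.25% over the 6 libraries. Per length, Tgfb1 stood 15.1 to 27.5 times above Tgfb2 and 4.71 to 6.43 times above Tgfb3. The summed ligand level was 14.9 and 15.4 FPKM in HSPA1A replicates 1 and 3 and 19.0 to 20.1 FPKM in the other 4 libraries.

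**Figure D2:**
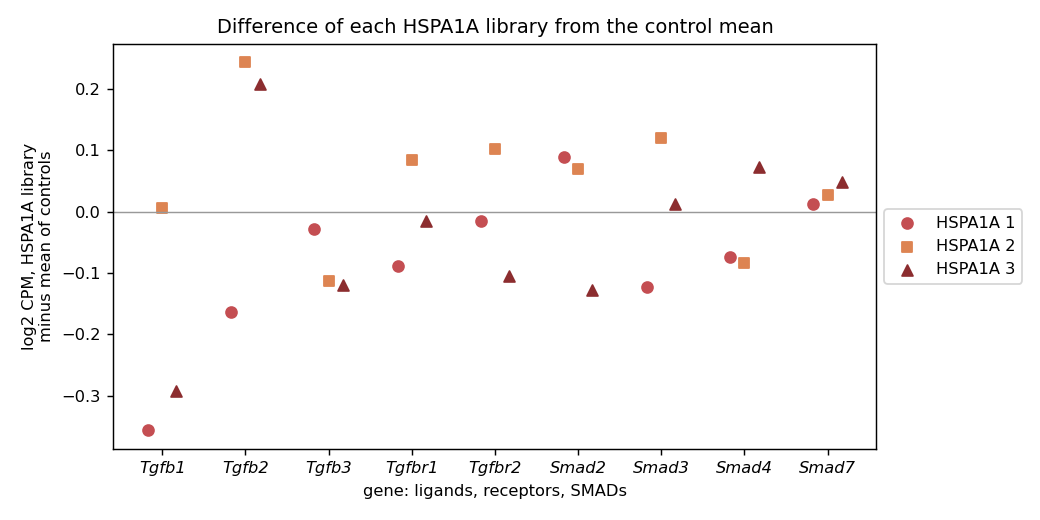
Log2 CPM of each HSPA1A library minus the mean of the 3 control libraries, for the 9 genes. For Tgfb1, HSPA1A replicates 1 and 3 lie at -0.36 and -0.29 and replicate 2 at 0.01, while each SMAD gene lies between -0.13 and 0.12 in all 3 libraries.

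The receptor genes showed little difference between the groups. Tgfbr1, the type I receptor kinase gene, was at 15.3, 14.9 and 14.5 CPM in control versus 14.0, 15.8 and 14.7 CPM in HSPA1A replicates 1 to 3. HSPA1A replicate 2 was the highest and replicate 1 the lowest of all 6 libraries. Tgfbr2, the ligand-binding type II receptor kinase gene, was at 31.4, 32.04 and 30.5 CPM in control versus 31.0, 33.6 and 29.1 CPM in HSPA1A replicates 1 to 3, where replicates 2 and 3 were the highest and the lowest. The log2 fold changes were -0.00 for both genes, with 95% intervals from -0.18 to 0.17 for Tgfbr1 and from -0.15 to 0.14 for Tgfbr2. Per length, Tgfbr2 stood above Tgfbr1 by 2.65 to 2.95 times in every library, at a mean ratio of 2.82 ± 0.065 in control and 2.82 ± 0.16 in HSPA1A libraries (SD, n = 3 each).

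Among the SMAD genes, Smad2 and Smad3 encode the SMADs that the TGF-beta receptor phosphorylates. Smad2 was at 28.6, 27.4 and 30.3 CPM in control versus 30.6, 30.2 and 26.3 CPM in HSPA1A replicates 1 to 3. Smad3 was at 34.4, 29.7 and 33.8 CPM in control versus 29.9, 35.4 and 32.9 CPM in HSPA1A replicates 1 to 3. For both genes the groups overlapped, and the lowest library was HSPA1A replicate 3 for Smad2 and control replicate 2 for Smad3. The log2 fold changes were 0.01 for Smad2 (95% interval -0.15 to 0.18) and 0.00 for Smad3 (95% interval -0.17 to 0.18). On library totals alone, which placed the median of all genes at -0.03, they were -0.02 and -0.03. Per length, Smad2 stood 1.21 to 1.55 times above Smad3.

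Smad4, the common mediator, had the most reads of the members, 9355 over all libraries. It was at 61.0, 60.5 and 64.1 CPM in control versus 58.8, 58.3 and 65.1 CPM in HSPA1A replicates 1 to 3, so the HSPA1A libraries held the lowest and the highest values. Its log2 fold change was -0.03 (95% interval -0.16 to 0.10). Smad7, the inhibitory SMAD that the pathway itself induces, was at 23.4, 21.98 and 21.3 CPM in control versus 22.4, 22.6 and 23.0 CPM in HSPA1A replicates 1 to 3. All HSPA1A values of Smad7 lay within the control range. Smad7 had a log2 fold change of 0.03 (95% interval -0.12 to 0.18), which was -0.01 on library totals alone, where the median of all genes was -0.03. The FPKM ratio of Smad7 to the sum of Smad2 and Smad3 was 0.340 ± 0.026 in control and 0.345 ± 0.022 in HSPA1A libraries (SD, n = 3 each).

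In all, 0 of the 9 members passed the test with all 6 libraries in edgeR's quasi-likelihood test, and DESeq2 called 0 as well. The background was 0.179% of all tested genes for edgeR (0.0234% higher, 0.156% lower) and 0.499% for DESeq2. In CPM, for 0 of 9 members did the groups not overlap, against 14.5% of all tested genes. On FPKM the groups did not overlap for Tgfb3, at 2.54 to 2.83 in control and 2.34 to 2.5 in HSPA1A libraries. The background share for FPKM was not computed, and the median log2 fold change of all genes on FPKM plus 1 was -0.041. The median log2 fold change was -0.00 over the members and 0.00 over all tested genes. For the 6 receptor and SMAD genes every 95% interval of the fold change lay between 0.883 and 1.13 times the control level, while the intervals of Tgfb1, Tgfb2 and Tgfb3 reached from 0.757 to 0.996, from 0.785 to 1.42 and from 0.813 to 1.09 times. The labels do not say whether replicates came from separate cultures, so p-values and intervals cover only the variation among these libraries, and that may be technical.

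**Figure D3:**
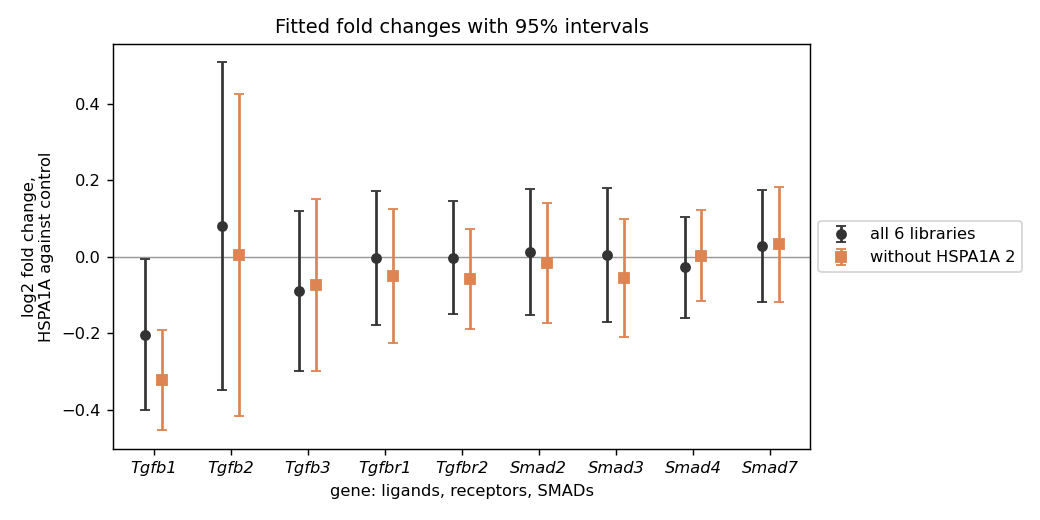
Log2 fold changes of HSPA1A against control libraries with 95% intervals, from all 6 libraries (dark circles) and without HSPA1A replicate 2 (orange squares). Tgfb1 moves from -0.20 to -0.32 when that library is left out, and the intervals of the other 8 genes include 0 in both fits.

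The members' patterns over the 6 libraries were also compared with all 9263 genes averaging at least 5 CPM, leaving out predicted and clone-named genes, by the root mean square difference of log2 CPM after centring each gene. Closest to Tgfb1 were Gas2l1, Etl4 and Ficd, at 0.022, 0.028 and 0.029, where the median over genes was 0.18. Gas2l1, for example, was at 58.5, 53.8 and 55.4 CPM in control versus 45.0, 56.3 and 45.0 CPM in HSPA1A replicates 1 to 3. Tgfbr2 and Smad4 varied less over the libraries than Tgfb1, with SDs of 0.063 and 0.059 against 0.16 on this scale. Closest to Tgfbr2 were Lgmn, Blcap and Ptpn23, at 0.013 to 0.014, where the median over genes was 0.11. Closest to Smad4 were Socs6, Cbx5 and Cd2bp2, at 0.016 to 0.019, where the median was 0.10. These genes share the libraries with the members and were picked as the nearest of many.

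Other genes of the pathway were described in 7 lists by role, of which 175 distinct genes were tested. Only Ier3 among them was called with all 6 libraries, against 0.179% of all tested genes. An unadjusted p under 0.05 was found for 15 of the 175, or 8.57%, against 8.59% of all tested genes. Without HSPA1A replicate 2, 25 of the 175 were called, 18 lower and 7 higher, or 14.3% against 10.2% of all tested genes. Genes named for that fit were picked after their values were seen.

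The proteins that hold latent ligand in the matrix and release it formed the first list. Of its 31 genes 24 were tested, 0 were called and the median log2 fold change was -0.03. Of the 24, 2 were higher and 3 lower at an unadjusted p under 0.05, against 8.59% of all tested genes in either direction. Log2 fold changes were negative for 18 and positive for 6 of the 24, where all tested genes had 6283 negative and 6544 positive. Ltbp1, which encodes a latent TGF-beta binding protein, was at 446 ± 13 CPM in control versus 434 ± 13 CPM in HSPA1A libraries. Ltbp2, a relative that does not bind latent TGF-beta, was at 8.04, 8.66 and 6.36 CPM in control versus 3.71, 6.54 and 4.55 CPM in HSPA1A replicates 1 to 3 (log2 fold change -0.63 ± 0.20, adjusted p = 0.434, edgeR's quasi-likelihood test). Ltbp4 was at 29.7 ± 1.9 and 24.2 ± 3.1 CPM, and Ltbp3 at 85.8 ± 4.1 and 77.0 ± 9.9 CPM (SD, n = 3 each). In all 3 of these genes HSPA1A replicate 2 lay within the control range and replicates 1 and 3 below it. Mmp2, a matrix metalloproteinase gene, was lower in each HSPA1A library than in any control, at 17.4 ± 0.3 against 21.02 ± 0.8 CPM (adjusted p = 0.321). On the other side, Thbs1, Vasn and Htra1 were higher in each HSPA1A library than in any control. The groups thus did not overlap for 4 of the 24 genes, or 16.7%, against 14.5% of all tested genes. Thbs1, which encodes thrombospondin, an activator of latent TGF-beta, was at 6.62 ± 0.11 CPM in control versus 8.34 ± 0.90 CPM with HSPA1A (log2 fold change 0.34, adjusted p = 0.476). Without HSPA1A replicate 2, 7 of the 24 were called (29.2%, against 10.2% of all tested genes). Of these Ltbp2, Ltbp3, Ltbp4, Mmp2, Emilin1 and Bmp1 were lower, at log2 fold changes from -0.89 for Ltbp2 to -0.24 for Bmp1, and Htra1, a secreted serine protease gene, was higher at 0.19. The list's most abundant genes per length were Htra1 and Itgb1, at 312 and 154 FPKM.

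**Figure D4:**
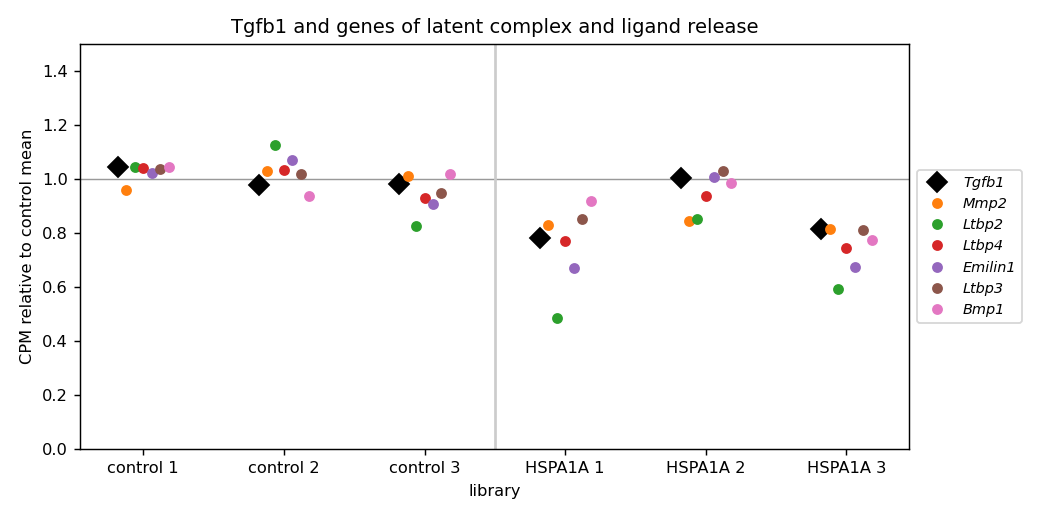
CPM relative to the mean of the 3 control libraries for Tgfb1 (black diamonds) and the 6 genes of latent complex and ligand release that were called lower without HSPA1A replicate 2, by library. In HSPA1A replicates 1 and 3 every point lies below 1, whereas in HSPA1A replicate 2 Tgfb1, Ltbp3 and Emilin1 lie near 1 and Mmp2 and Ltbp2 lie lower. The genes were selected for this contrast.

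Among the other ligands of the superfamily and their secreted antagonists, 12 of 34 genes were tested and 0 were called, with 0 at an unadjusted p under 0.05 and a median log2 fold change of 0.06. Gdf15, a stress-induced cytokine gene, and Grem1, a BMP antagonist gene, were the most abundant per length, at 38.5 and 31.6 FPKM. Neither passed the test, with Gdf15 at 75.6 CPM in control versus 78.4 CPM in HSPA1A libraries on average. Inhbb, Gdf11 and Fstl1 had the smallest p-values, with log2 fold changes of 0.49, -0.27 and -0.14. When HSPA1A replicate 2 was left out, Fstl1, a secreted follistatin-related gene, was the 1 gene called, at -0.25. Bmp2 and Bmp4, which encode cardiac morphogens, had 1 and 39 reads in all and were not tested.

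The other receptors and co-receptors of the superfamily gave 0 called of 13 tested genes, 0 at an unadjusted p under 0.05, and 0 called without HSPA1A replicate 2. Acvr1, an activin and BMP type I receptor gene, and Nrp2, a co-receptor gene, were the most abundant per length, at 17.6 and 13.9 FPKM. The smallest p-values belonged to Rgma, Eng and Acvr1, with log2 fold changes of -0.17, 0.31 and 0.08. Acvrl1, a type I receptor gene known from endothelium, had 53 reads in all.

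Of the other SMADs, SMAD partners and corepressors, 22 of 25 genes were tested, with 0 called, 0 at an unadjusted p under 0.05 and a median of -0.03. Smad5 and Smad1, the BMP-regulated SMAD genes, were at 55.2 ± 0.8 and 18.8 ± 1.3 CPM in control versus 53.9 ± 0.8 and 17.4 ± 2.1 CPM in the HSPA1A group (SD, n = 3 each). Strap and Tgif1, which encode negative regulators of the pathway, were the most abundant per length, at 99.4 and 77.8 FPKM. Runx1, Tgfb1i1 and Tob1 had the smallest p-values, with log2 fold changes of -0.12, -0.19 and 0.12. Tgfb1i1, which encodes the focal adhesion protein Hic-5, was at 78.5, 78.0 and 81.8 CPM in control versus 64.0, 83.5 and 60.6 CPM in HSPA1A replicates 1 to 3, again low in replicates 1 and 3. Tgfb1i1 and Trim28 were called lower without that library, at -0.35 and -0.20.

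For receptor and SMAD turnover, all 28 genes were tested and 0 were called, with 1 higher and 2 lower at an unadjusted p under 0.05. Cav1, the caveolin gene of receptor internalisation, was at 290 ± 4.9 CPM in control versus 332 ± 20 CPM in HSPA1A libraries, higher in each HSPA1A library than in any control (log2 fold change 0.20 ± 0.06 SE, adjusted p = 0.411, edgeR's quasi-likelihood test). Over this list the groups did not overlap for 6 of the 28 genes, or 21.4%, against 14.5% of all tested genes. The ubiquitin ligase genes Wwp2 and Smurf1 had log2 fold changes of -0.13 and -0.12. Smurf2, the ligase that SMAD7 brings to the receptor, was at 39.6 CPM on average in both groups. Fkbp1a, a receptor-binding immunophilin gene, and Ppp1ca, a phosphatase catalytic subunit gene, were the most abundant at 322 and 262 FPKM. Without HSPA1A replicate 2, Cav1, Wwp1, Ppp2ca and Rbx1 were called higher and Dab2 and Wwp2 lower, 6 of 28 genes or 21.4%, against 10.2% of all tested genes.

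In the SMAD-independent branch, which runs through TAK1, MAP kinases and small GTPases, 0 of 25 genes were called, 0 had an unadjusted p under 0.05 and the median was -0.00. Rhoa and Cdc42, which encode small GTPases, were the most abundant per length at 334 and 174 FPKM, with log2 fold changes of 0.03 and 0.02. Shc1, Pard6a and Grb2 had the smallest p-values, with log2 fold changes of -0.09, -0.22 and 0.07. Limk1, an actin-regulating kinase gene, was called lower without HSPA1A replicate 2, at -0.25.

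The target genes of the pathway were the last list, with 56 of 66 genes tested, 26 positive and 30 negative log2 fold changes and a median of -0.01. One was called with all 6 libraries, the stress-response gene Ier3, which many other signals also induce. Ier3 was at 162, 171 and 162 CPM in control versus 125, 136 and 121 CPM in HSPA1A replicates 1 to 3, with no overlap of the groups (log2 fold change -0.37 ± 0.06 SE, adjusted p = 0.0428, edgeR's quasi-likelihood test). The call ended when any one library other than HSPA1A replicate 2 was left out, at adjusted p-values of 0.164 to 0.317. It also ended with a filter of 5 CPM at 0.0522, with the replicate number as a block at 0.0582 and with limma on FPKM at 0.123 to 0.128. The log2 fold change stayed between -0.43 and -0.34 in these fits. With the Yam1 covariate, chosen after the data were seen, it was -0.28, at an adjusted p of 0.679 in edgeR's quasi-likelihood test. Among direct SMAD targets taken from the list for their role, outside the naming rule, Ctgf was at 114 ± 1.1 CPM in control versus 113 ± 7.9 CPM in the HSPA1A group, and Skil at 43.1 ± 2.3 versus 42.9 ± 3.9 CPM (SD, n = 3 each). Neither passed the test, with or without HSPA1A replicate 2. Ctgf and Skil do not stand for the whole list. Of the 56 targets, 4 were higher and 5 lower at an unadjusted p under 0.05, against 8.59% of all tested genes in either direction. Id3, a target of the BMP branch, was at 5.60, 6.54 and 5.75 CPM in control versus 4.27, 4.73 and 3.52 CPM in HSPA1A replicates 1 to 3, without overlap (log2 fold change -0.51 ± 0.14 SE, adjusted p = 0.408). Among the targets the groups did not overlap for 8 of the 56 genes, or 14.3%, against 14.5% of all tested genes. The most abundant targets were Vim and Timp1, at 2201 and 461 FPKM, with log2 fold changes of -0.01 and 0.04.

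Without HSPA1A replicate 2, 9 of the 56 targets were called, 16.1% against 10.2% of all tested genes. Ier3, Id3, Ltbp2 (also in the list of ligand release), Spsb1, Col1a1, Col3a1 and Lox were lower, and Timp3 and Ahnak higher. The collagen gene Col1a1 was at 80.4, 73.7 and 75.3 CPM in control versus 64.6, 75.3 and 59.6 CPM in HSPA1A replicates 1 to 3. Lox, which encodes a collagen cross-linking enzyme, was at 292, 219 and 252 CPM in control versus 170, 334 and 212 CPM in HSPA1A replicates 1 to 3, so HSPA1A replicate 2 was the highest of all 6 libraries. Its log2 fold change moved from -0.09 with all libraries to -0.41 without that library. Timp3, a metalloproteinase inhibitor gene, was at 337 ± 30 CPM in control versus 419 ± 71 CPM in the HSPA1A group (SD, n = 3 each). Set against the control mean library by library, the target list had median log2 differences of -0.08, 0.09 and -0.04 in HSPA1A replicates 1, 2 and 3, while the median of all tested genes was 0.00 in each.

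**Figure D5:**
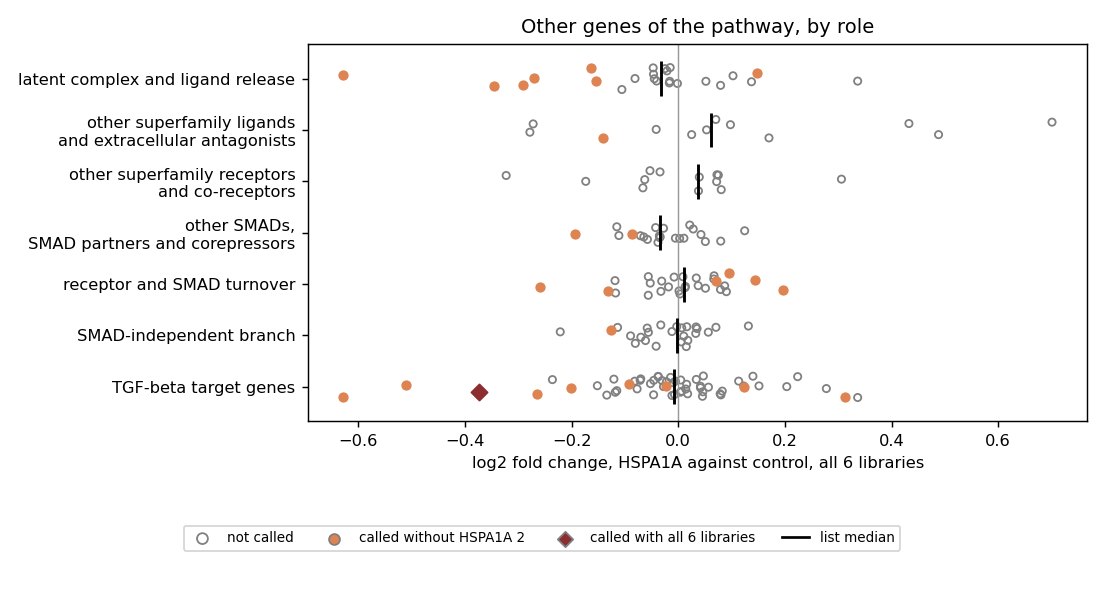
Log2 fold changes of HSPA1A against control from all 6 libraries for each tested gene of the 7 lists, with list medians as black lines (vertical position within a list is arbitrary). The diamond is Ier3 at -0.37, filled circles are genes called without HSPA1A replicate 2, and all medians lie between -0.03 and 0.06.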

How the data were processed

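Polyadenylated RNA of 6 samples was made into stranded paired-end libraries, per the labels' protocols. Named in the submitters' processing notes are bcl2fastq, TopHat2, edgeR and the build GRCm38. The sources used here do not give how reads were counted, with which strand setting and on which annotation release. Deposited by the authors were whole read counts per gene and FPKM, with 1 column per sample and 0 columns unused. Members were matched by symbol. Gene neighbours came from GENCODE M21 of GRCm38, in which 22729 gene identifiers were found without their version suffix.

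Counts were normalised by TMM and kept by filterByExpr (minimum count 10, minimum total 15). Groups were compared with edgeR 4.0.16 under R 4.3.3 by its quasi-likelihood test over 12827 genes, with Benjamini-Hochberg adjustment at 0.05 and no covariate. The biological coefficient of variation was 0.0688. Alternatives used DESeq2 1.42.0 and limma 3.58.1, the latter also on log2 of the FPKM plus 1 or 0.1. The Yam1 covariate was added after the data were seen. The fit was tested on simulated data.

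The members and lists were chosen with earlier results of these data known. Named genes were the members, per list the called genes, the 3 smallest p-values and the 2 highest FPKM, and the 3 genes most like the most abundant member of each class.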

Additional observations from a re-analysis of the deposited data

How the results depend on the processing

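The count of members called was 0 under the other scalings, tests and filters and with the Yam1 covariate, and 0 to 1 when single libraries were left out, with Tgfb1 called without HSPA1A replicate 2. Of 151 refits of single members, 150 did not pass the threshold and 30 changed sign, in genes near 0. With the Yam1 covariate Tgfbr1, Tgfbr2 and Smad7 stood at 0.0457, 0.0798 and -0.0199. On library totals alone, Smad2, Smad3 and Smad7 stood at -0.0226, -0.0302 and -0.0069, and without a filter on low counts Smad3 stood at -0.003. On log2 of FPKM plus 1, with or without a mean of at least 1 FPKM, Smad2, Smad3 and Smad7 stood at -0.042, -0.0458 and -0.024, and plus 0.1 at -0.0471, -0.0531 and -0.0284. The median of all genes was -0.033 on library totals and -0.055 to -0.041 on FPKM. Leaving out single libraries gave log2 fold changes from -0.323 to -0.1336 for Tgfb1, -0.0915 to 0.2544 for Tgfb2, -0.1304 to -0.0419 for Tgfb3, -0.0497 to 0.0366 for Tgfbr1, -0.0578 to 0.0471 for Tgfbr2, -0.0257 to 0.0795 for Smad2, -0.0581 to 0.0647 for Smad3, -0.0782 to 0.0032 for Smad4 and -0.0006 to 0.068 for Smad7. Tgfb2 was not tested under the filter of 5 CPM or of 1 FPKM.

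Over all genes 23 were called, against 64 with DESeq2, 205 without a filter on low counts, 15 with each of the 3 FPKM fits, 11 with the Yam1 covariate and 10 to 1323 when single libraries were left out. Without the filter, 2 genes of latent complex and ligand release, 1 of receptor and SMAD turnover and 3 targets were called. Leaving out single libraries gave 0 to 7 called genes of latent complex and ligand release, 0 to 1 of the other ligands, 0 to 2 of the SMAD partners, 0 to 6 of receptor and SMAD turnover, 0 to 1 of the SMAD-independent branch and 0 to 9 targets. The 1 target called became 0 under the filter of 5 CPM, the FPKM fits and the Yam1 covariate. The cause of these moves was not tested.

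Whether the replicate numbers pair the samples could not be decided with 3 libraries per group. The correlations of same-numbered deviations from the group means were -0.1002, -0.0015 and 0.085. Those of differently numbered deviations ran from -0.0896 to 0.0909. With the replicate block 16 genes were called over all genes, 0 members and 0 targets (Ier3 at -0.38, adjusted p = 0.0582). Tgfb2 had the lowest depth of the members, 77 to 135 reads per library. Its interval includes a change of the size seen for Tgfb1, as does the interval of Tgfb3.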
